A study of Mus musculus with 32 samples.

Results

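The genes of the cytosolic ribosomal proteins were followed in YUMM3.3 cells, a Braf mutant mouse melanoma line, after treatment with Activin-A and IFN-γ. Members were the protein-coding rows whose mouse symbol begins with Rpl or Rps and a digit, or is Rpsa, Rplp0, Rplp1 or Rplp2. The Rps6k kinases and symbols containing -ps were left out. The rule found 83 of the 12451 genes in the table, of which 46 encode proteins of the large subunit and 31 proteins of the small subunit. The other 6 were the paralogs Rpl22l1, Rpl36al, Rpl7l1, Rps27l and Rps27rt, and Rps19bp1, whose product binds Rps19 and is not a subunit of the ribosome.

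Cells grown in 6-well plates were left untreated (NT) or were given Activin-A, IFN-γ at 20 ng/ml, or both, and were harvested after 4 or 12 hrs. Activin-A was at 40 ng/ml by the study's methods, whereas its figure legends for this experiment give a higher concentration. The 8 groups had 4 wells each, and mRNA was measured by BRB-seq, in which the 3′ ends of transcripts from barcoded wells are sequenced together. The wells are cultures of 1 line, so that p-values measure only the spread between wells. Total counts ranged from 654539 to 1455074 per well. The floor of detection, taken as 3 counts, equalled between 2.06 and 4.58 counts per 1000000 (CPM) of these unscaled totals. As a check of the labels, all 6 IFN-γ target genes examined rose with IFN-γ at both times, and 5 of 5 Activin-A target genes rose with Activin-A at 4 hrs and 3 of 5 at 12 hrs. All 8 melanocyte markers were listed and 7 had a mean above 3 counts, at 323 to 446 CPM in sum for the 8. Of the defining ones, Mitf was at 2.57 to 13.8 CPM and Sox10 at 9.85 to 29.8 CPM, while the summed leukocyte markers stayed at or below 15.1 CPM, the 2 of 3 fibroblast markers in the table summed to 5.77 to 24.4 CPM, and endothelial and epithelial markers were not in the table.

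The ribosome is built from ribosomal RNA and a single copy of most of its proteins, so that cells make these proteins in step, and their mRNAs are among the most abundant in growing cells. Most ribosomal protein mRNAs begin with a cytosine followed by a run of pyrimidines, the 5′ terminal oligopyrimidine (TOP) motif, through which mTOR and the RNA-binding protein Larp1 adjust their translation and stability. In melanoma cells, as in other dividing cells, the supply of ribosomes follows growth signals.

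The TOP motif is a feature that the symbol rule did not use, so the annotated starts of the members were read for it. RefSeq promoters of GRCm38.p6 were at hand for 63 of the 83 members. A C followed by at least 4 bases that are each C or T began exactly at the annotated start in 14 of these 63 members (22.2%), against 3.01% of all 27025 genes with a promoter. Allowing the tract to begin up to 10 bases to either side, it was present in 37 of 63 members (58.7%) and in 34.4% of all genes. The lines below give 15 bases before and 15 bases from the start of 4 members whose tract, shown in capitals, begins exactly at the start, and of 5 members with none at that base, most of which passed a test in a comparison described further on. Of these 5, Rpl22 and Rpl10a count among the 37 with a tract within 10 bases.

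Rps18, chr17:33955651-33955680, minus strand: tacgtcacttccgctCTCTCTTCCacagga
Rps27, chr3:90213634-90213663, minus strand: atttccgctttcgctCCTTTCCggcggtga
Rpl35a, chr16:33056467-33056496, plus strand: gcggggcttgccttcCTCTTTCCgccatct
Rps6, chr4:86857353-86857382, minus strand: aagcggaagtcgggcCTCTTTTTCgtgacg
Rps3, chr7:99483695-99483724, minus strand: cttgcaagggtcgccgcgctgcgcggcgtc
Rpl22, chr4:152325711-152325740, plus strand: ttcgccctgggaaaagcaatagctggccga
Rpl10a, chr17:28328456-28328485, plus strand: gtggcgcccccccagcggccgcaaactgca
Rpl41, chr10:128549154-128549183, minus strand: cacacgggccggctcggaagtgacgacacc
Rps28, chr17:33824548-33824577, minus strand: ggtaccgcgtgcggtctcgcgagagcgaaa

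RefSeq lists 3 starts for Rpl35a and 2 each for Rpl22 and Rpl10a, and 1 of them is shown. A second sequence, CCGGAAG, searched on both strands of the 300 bases around the start, was found in 25 of the 63 members (39.7%) and in 9.93% of all genes. TATAAA, searched in the same way, was found in 7 of 63 members (11.1%) and in 15.7% of all genes. These matches describe letters in the annotated sequence only, and the counts themselves were made on GRCm39.

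Together the 83 members held between 8.77% and 10.9% of the counts of a well. The 95% Wilson interval of a well's share reached at most 0.0741 percentage points to either side, which covers counting error only, whereas the SD between wells of 1 group was 0.214 to 0.791 points. The 10 members with the highest counts, among them Rplp0 and Rps3, made up 35.5% of the members' counts. Counts are not scaled by transcript length, so levels are compared between wells and not between genes. Of the 83 members, 75 had a mean above 100 counts per well. Rpl24 and Rps10, although parts of every ribosome, had means of 1.0 and 2.94 counts, and Rpl36al and Rps27rt had 7.31 and 14.3. How reads shared between a gene and its copies were counted is not given in the sources used here, and 60 of the 83 members have at least 1 -ps pseudogene locus in GENCODE's annotation. Fau, which encodes a ribosomal protein fused to a ubiquitin-like protein and falls outside the symbol rule, was at 836 to 932 CPM in NT wells at 12 hrs.

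At 4 hrs the groups were close. The members' share was 9.82, 10.4, 10.3 and 10.0% in the 4 NT wells and 8.77, 10.4, 10.3 and 10.3% with Activin-A. It was 10.3, 9.50, 10.1 and 9.77% after IFN-γ alone and 10.2, 9.88, 9.74 and 10.3% after both. The 4 groups overlapped, and the low value of 8.77% belonged to replicate 1 with Activin-A. That well also had the highest total, 1455074 counts, and a 2.14% share of mitochondrially encoded transcripts, against 1.08% to 1.54% in the other 31 wells. In it 67 of the 80 members tested were at the lowest CPM of the 4 Activin-A wells. The part of this well in the results was not tested beyond leaving it out, and its value is given below wherever it decides one. The mean share was 10.1% ± 0.239 (SD, n = 4) in NT cells and 9.95% ± 0.791 with Activin-A (10.3% ± 0.0767 without that well, n = 3). It was 9.93% ± 0.371 after IFN-γ alone and 10.0% ± 0.248 after both.

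At 12 hrs the group means lay further apart. The share was 10.7, 10.2, 10.7 and 10.9% in the 4 NT wells and 10.7, 10.3, 10.3 and 10.6% with Activin-A. With IFN-γ it was 10.6, 9.99, 9.66 and 10.0%, and with both factors 9.54, 9.96, 9.53 and 10.0%. By this share of unscaled totals, every well that received both factors lay below every NT well and every Activin-A well. This group overlapped with the IFN-γ wells. The mean log2 CPM of the members, which is scaled by TMM, did not separate them. It was 9.31 to 9.41 with both factors, 9.34 to 9.49 in NT wells and 9.38 to 9.49 with Activin-A. The mean share was 10.6% ± 0.308 (SD, n = 4) in NT cells and 10.5% ± 0.214 with Activin-A. It was 10.1% ± 0.374 after IFN-γ alone and 9.76% ± 0.266 after both. The mean share with both factors thus differed from NT by -0.882 percentage points, which is -8.29% of the NT mean. As a log2 ratio of shares, IFN-γ against NT was -0.083, or -0.041 with totals multiplied by the TMM factor and -0.029 for the mean log2 CPM of the members, and both factors against IFN-γ was -0.042, -0.066 and -0.054. Without replicate 1 with IFN-γ, the highest of its group, the ratio of shares of both factors against IFN-γ was -0.018. The mitochondrially encoded share was 1.22% to 1.33% in the NT wells and 1.26% to 1.33% in the wells with both factors. Large-subunit counts divided by small-subunit counts gave 1.33 to 1.36 in NT wells and 1.35 to 1.37 with both factors at 12 hrs.

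**Figure D1:**
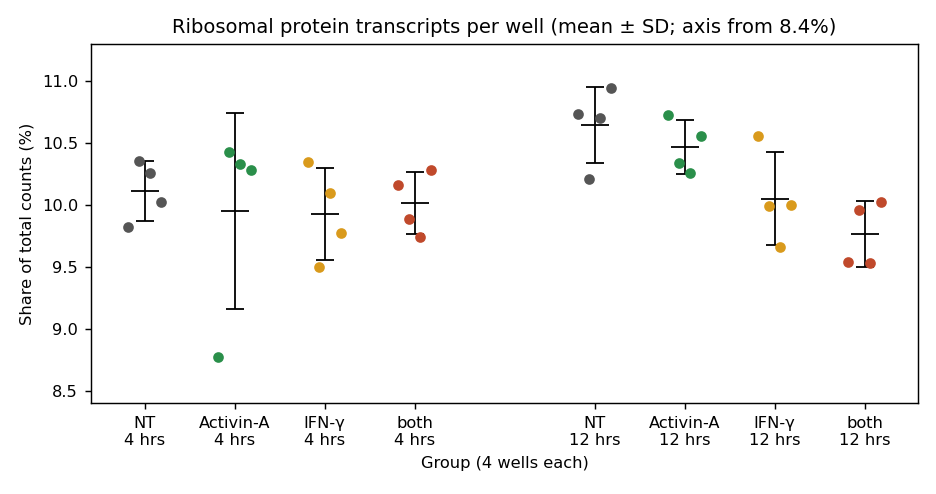
Share of total counts held by the 83 ribosomal protein genes, in percent, for each of the 32 wells (points) with the group mean ± SD (bars, n = 4); the axis starts at 8.4%. The 4 wells with both factors at 12 hrs lie between 9.53% and 10.0%, below the 4 NT wells at 10.2% to 10.9%, and replicate 1 with Activin-A at 4 hrs lies at 8.77%.

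Single members were then tested against treatment, by the quasi-likelihood test of edgeR, fitted to the 16 wells of a time point, with Benjamini-Hochberg adjustment over all genes tested. A filter on low counts left 80 members among 9137 genes at 4 hrs and 80 among 8971 genes at 12 hrs, and a gene was called a DEG at an adjusted p under 0.05.

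At 4 hrs no member was a DEG in any comparison of this fit. With Activin-A against NT edgeR called 0 of 80 members and 1.64% of all genes, with IFN-γ 0 and 5.06%, with both factors 0 and 7.29%, and with both factors against IFN-γ alone 0 and 0.81%. At an unadjusted p under 0.05 the members numbered 2, 2, 5 and 1 in these comparisons, and DESeq2 called 0 in each. For the interaction, the effect of Activin-A with IFN-γ minus its effect without, edgeR called 0 members and 0.0% of all genes, with 1 member at an unadjusted p under 0.05 and 0 with DESeq2. The median member log2FC against NT was -0.01 with Activin-A, 0.02 after IFN-γ alone and 0.03 after both, and the median of all genes lay between -0.01 and 0.00. With total counts only these medians were -0.0046, -0.026 and -0.015, so that the latter 2 turned below 0. The medians of all genes were then 0.0089, -0.051 and -0.048, and the latter 2 member medians stayed above them. That scaling called 1 member as lower with both factors against NT (1.25%, beside 7.55% of all genes).

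Members far from 0 at 4 hrs included several with few counts. Rpl13a, a large-subunit protein also known for the IFN-γ-dependent GAIT complex of myeloid cells, was at 58.8 ± 7.87 CPM (SD, n = 4) in NT cells, 72.8 ± 21.0 with Activin-A, 58.2 ± 7.54 after IFN-γ alone and 73.7 ± 7.55 after both. Its log2FC with both factors was 0.33 ± 0.16 (SE), with an edgeR adjusted p of 0.26. Rpl27, of the large subunit, had a log2FC of -0.24 ± 0.11 (SE) with Activin-A and -0.28 ± 0.11 with both factors, with edgeR adjusted p-values of 0.35 and 0.12. Rpl38, known from the mouse mutant Tail short, had a log2FC of -0.37 ± 0.15 (SE) with IFN-γ and an edgeR adjusted p of 0.18. None of these passed, but without the Activin-A well that stood apart Rpl13a (log2FC 0.50, edgeR adjusted p = 0.043) and Rpl41 (0.32, 0.0046) passed as higher with Activin-A, and the median member log2FC became 0.05. The 1.64% of all genes given above belongs to the fit with that well. These calls without it therefore stand here with no background share.

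At 12 hrs both factors together lowered 9 members against NT and raised 0. This was 11.2% of the 80 members tested, beside 9.84% of all genes, a share near the background. All genes called comprised 551 that rose and 332 that fell, and the 9 members all fell. Of the 80 members 70 had a log2FC below 0 (87.5%, against 51.5% of all genes), 30 had an unadjusted p under 0.05, and the median member log2FC was -0.10, a change of -6.45%, against -0.01 over all genes. The median was -0.07 for the 45 large-subunit members tested and -0.10 for the 30 of the small subunit. Members varied together between wells of 1 group, so these counts are a description and not a test: at 12 hrs replicate 2 was the lowest of the 4 NT wells in 58 of 80 members, and replicate 1 the highest of the 4 IFN-γ wells in 55.

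Rps3, which lies at the entry of the mRNA channel of the small subunit, was the member with the lowest p. It was at 5212, 4849, 5350 and 5402 CPM in NT wells and at 4394, 3976, 4018 and 4763 CPM with both factors. The groups did not overlap, and Activin-A wells (4329 to 5410 CPM) and IFN-γ wells (4549 to 5746 CPM) lay across both. Rps3 fell by 0.27 ± 0.05 (SE) on the log2 scale with both factors, with an edgeR adjusted p of 1.33e-05.

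Rpl17, of the large subunit near the exit of the peptide tunnel, was at 1405, 1236, 1525 and 1656 CPM in NT wells and at 1063, 1319, 1117 and 1212 CPM with both factors. 1 well with both factors lay above the lowest NT well. Its log2FC was -0.29 ± 0.06 (SE), with an edgeR adjusted p of 0.000241. Rps18, of the head of the small subunit and with a TOP-like start, was at 741, 670, 851 and 804 CPM in NT wells and at 613, 688, 587 and 688 CPM with both factors. These groups also overlapped by the lowest NT well, and the log2FC was -0.24 ± 0.07 (SE), with an edgeR adjusted p of 0.00676.

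Rpl22, an RNA-binding protein of the large subunit, was at 949, 869, 929 and 974 CPM in NT wells and at 801, 821, 823 and 787 CPM with both factors. The groups were separate, and all 4 IFN-γ wells (867 to 898 CPM) lay above all wells with both factors. Its log2FC was -0.20 ± 0.05 (SE), with an edgeR adjusted p of 0.00731. Rpl10a, of the L1 stalk of the large subunit, was at 1133, 1016, 1114 and 1010 CPM in NT wells and at 890, 919, 894 and 1004 CPM with both factors. These groups were separate by the narrow gap between 1004 and 1010 CPM, and the log2FC was -0.20 ± 0.06 (SE), with an edgeR adjusted p of 0.00748.

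The other 4 members called had smaller margins. Rpl41, the shortest ribosomal protein, was at 929 ± 67.6 CPM (SD, n = 4) in NT wells and 803 ± 90.2 with both factors. Rplp0, the base of the stalk that binds elongation factors, was at 5374 ± 210 and 4842 ± 370 CPM. Rps4x was at 1774 ± 98.7 and 1587 ± 42.4 CPM, and Rps9 at 2095 ± 95.1 and 1874 ± 106 CPM. Rps4x did not overlap between the groups and the other 3 did. Their log2FC lay between -0.20 and -0.14, with edgeR adjusted p-values of 0.0257 to 0.0318.

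In all, 11 of 80 members had every well with both factors below every NT well, beside 5.29% of all genes: Rpl10a, Rpl13, Rpl15, Rpl22, Rpl32, Rpl4, Rps15a, Rps3, Rps3a1, Rps4x and Rpsa. The mean CPM over the 4 treatments at 12 hrs was lowest with both factors in 58 of 80 members, against 26.0% of all genes, and highest in NT cells in 42 of 80, against 26.5%. At 4 hrs the group with both factors had the lowest mean in 12 of 80 members, against 26.3% of all genes, and the highest in 27, against 21.1%. Without replicate 1 with Activin-A at 4 hrs these counts were 15 and 14, against 25.7% and 21.0% of all genes. The calls depended on the test. DESeq2 called 4 of the 9 (Rps3, Rpl22, Rpl10a and Rps4x), a fit over all 32 wells called 4 (Rps3, Rpl17, Rpl22 and Rpl10a), and scaling by total counts alone called 21, all lower, which is 26.2% of the members beside 10.2% of all genes under that scaling. Without replicate 3 of the wells with both factors 4 members were called, without replicate 1 of the NT wells, replicate 3 of the NT wells or replicate 1 with both factors 5 in each case, and without replicate 4 of the NT wells 6. Leaving out some other wells gave more than 9, within the range given further below. The shares of all genes called in these fits are not given here.

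**Figure D2:**
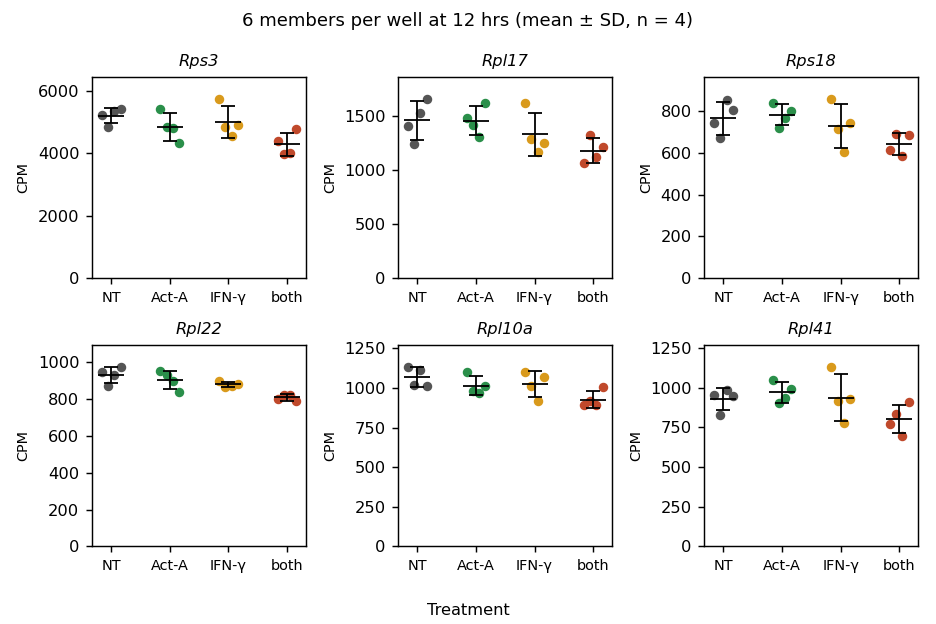
CPM of 6 members called with both factors against NT at 12 hrs, for each well of the 4 treatments (points), with mean ± SD (bars, n = 4); each axis starts at 0. The wells with both factors are the lowest on average in each panel, and Rps3, Rpl22 and Rpl10a do not overlap with NT while Rpl17, Rps18 and Rpl41 do.

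Each factor alone was compared with NT at 12 hrs. With Activin-A edgeR called 0 of 80 members beside 2.41% of all genes, 2 members had an unadjusted p under 0.05, and DESeq2 called 0. The median member log2FC was -0.03. No member had all Activin-A wells below all NT wells, beside 3.38% of all genes. Rps28, of the small subunit, was among the lowest, with a log2FC of -0.23 ± 0.10 (SE) and an edgeR adjusted p of 0.29.

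IFN-γ lowered 2 of 80 members (2.5%), beside 9.25% of all genes, and the median member log2FC was -0.04 against -0.01 over all genes. Rpl35a, a large-subunit protein mutated in some Diamond-Blackfan anemia, was at 649, 450, 631 and 484 CPM in NT wells and at 500, 494, 422 and 428 CPM with IFN-γ. The NT wells formed a high and a low pair, and the IFN-γ wells overlapped with the low pair. Its log2FC was -0.27 ± 0.07 (SE), with an edgeR adjusted p of 0.00574. Rps27l, a paralog of Rps27 known as a p53 target, was at 271, 232, 222 and 232 CPM in NT wells and at 209, 193, 191 and 219 CPM with IFN-γ. These groups did not overlap, and the log2FC was -0.24 ± 0.08 (SE), with an edgeR adjusted p of 0.0368. All IFN-γ wells were below all NT wells in 3 of 80 members, Rpl7l1 and Rps27l among them, beside 4.78% of all genes. DESeq2 called 0 members here and so did the fit over all 32 wells, and without replicate 1 of the NT wells edgeR called 0. It called 1 without replicate 3 of the NT wells or without replicate 2, 3 or 4 with IFN-γ. The shares of all genes called in these alternative fits are not given here. With total counts only edgeR called 7 (8.75%, beside 9.89% of all genes), and the median member log2FC was -0.08 against -0.06 over all genes.

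Adding Activin-A to IFN-γ, at 12 hrs, lowered 2 of 80 members (2.5%), Rps3 among them, beside 1.03% of all genes. Rps3 was at 5746, 4854, 4549 and 4911 CPM with IFN-γ, which overlapped with the wells that received both factors, and its log2FC was -0.22 ± 0.05 (SE), with an edgeR adjusted p of 0.00536. The median member log2FC was -0.05, and 64 of 80 members lay below 0, against 51.8% of all genes. Rpl22, Rps21, Rps4x and Rpsa had all wells with both factors below all IFN-γ wells, 4 of 80 beside 3.46% of all genes. DESeq2 called 1 member, and a fit over all 32 wells called 0. Without replicate 3 with both factors or replicate 1 with IFN-γ, 0 members were called, without replicate 2 with both factors, or replicate 2 or 4 with IFN-γ, 1, and without replicate 3 with IFN-γ 4. The 1.03% of all genes belongs to the main fit, and the shares in these alternative fits are not given here.

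The interaction at 12 hrs was a DEG for 0 of 80 members with edgeR, beside 0.0111% of all genes, with 4 members at an unadjusted p under 0.05 and 0 with DESeq2. The effects of Activin-A with and without IFN-γ were thus not shown to differ for any member. The member nearest to it, Rpl41, had an interaction log2FC of -0.29 ± 0.09 (SE), with an edgeR adjusted p of 0.31. Both factors against Activin-A alone, a comparison added after seeing the data, gave 6 members (7.5%), beside 9.62% of all genes. These 6 fell: Rpl17 (log2FC -0.30), Rps18 (-0.28), Rpl41 (-0.27), Rps25 (-0.18), Rps3 (-0.18) and Rpl22 (-0.16), with edgeR adjusted p-values of 0.000184 to 0.0424. This comparison shares the wells with both factors with the 2 described above. DESeq2 called 1 of them, Rpl22, and the fit over all 32 wells 3, as did edgeR without replicate 3 with both factors or without replicate 1 with Activin-A. For these alternative fits the shares of all genes called are not given here. With total counts only edgeR called 12 of 80, beside 10.2% of all genes.

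**Figure D3:**
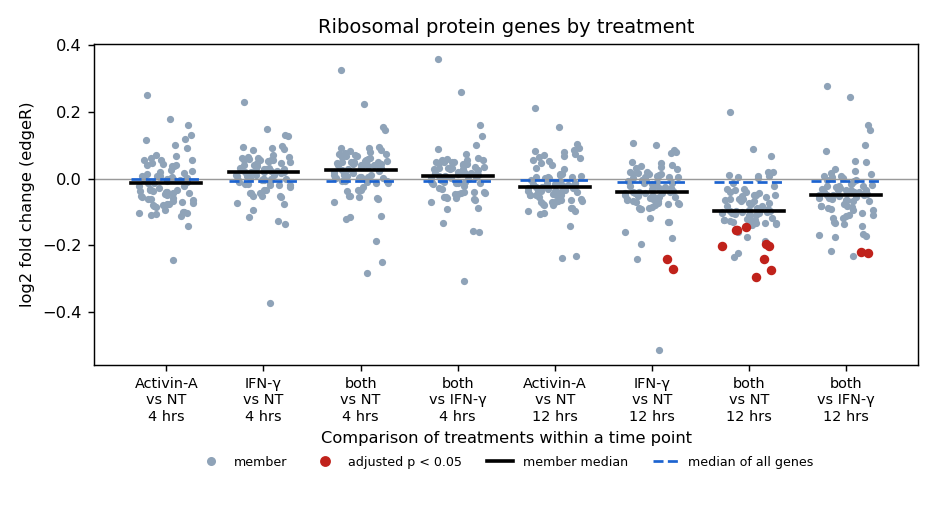
log2FC of each tested member (points, 80 per column) in 8 comparisons of treatments, with members at an edgeR adjusted p under 0.05 in red, the median of the members (black line) and the median of all genes (dashed line). At 4 hrs the medians of the members lie between -0.01 and 0.03 with no red point, and at 12 hrs with both factors against NT the median is -0.10 with 9 red points, all below 0.

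Time was compared next, 12 hrs against 4 hrs in each treatment, in a fit over all 32 wells with 81 members among 9332 genes. In NT cells 4 members rose and 0 fell, which is 4.94% of the members beside 4.9% of all genes, and 70 of 81 members had a log2FC above 0. The median member log2FC was 0.08, against 0.00 over all genes. The share of the members went from 10.1% to 10.6% of counts, with 1 NT well at 12 hrs inside the range of the 4 hrs wells. The mitochondrially encoded share moved the other way, from 1.32% to 1.43% in the NT wells at 4 hrs to between 1.22% and 1.33% at 12 hrs.

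Rps28 was at 103, 109, 131 and 113 CPM at 4 hrs and at 160, 130, 152 and 190 CPM at 12 hrs in NT cells, overlapping by 1 well at about 130 CPM. It rose by 0.47 ± 0.10 (SE) on the log2 scale, with an edgeR adjusted p of 0.00101. Rpl37, a zinc-binding protein of the large subunit, was at 295, 306, 277 and 284 CPM and then at 344, 355, 374 and 396 CPM. Its groups were separate, and the log2FC was 0.33 ± 0.08 (SE), with an edgeR adjusted p of 0.00438. Rps27, a zinc-binding protein of the small subunit with a TOP-like start, was at 447, 467, 465 and 448 CPM and then at 532, 484, 577 and 586 CPM, again without overlap. It rose by 0.25 ± 0.07 (SE), with an edgeR adjusted p of 0.0254. Rpl10a was at 877, 963, 949 and 921 CPM and then at the 1010 to 1133 CPM given above, a rise of 0.20 ± 0.06 (SE) with an edgeR adjusted p of 0.0283.

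All 4 NT wells at 12 hrs were above all 4 at 4 hrs in 11 of 81 members, beside 5.53% of all genes: Rpl10a, Rpl12, Rpl22, Rpl3, Rpl32, Rpl37, Rpl5, Rps15, Rps15a, Rps20 and Rps27. Rpl5, which with Rpl11 and the 5S RNA binds Mdm2, had a log2FC of 0.10 ± 0.06 (SE), and Rpl11 one of 0.01 ± 0.06, with edgeR adjusted p-values of 0.41 and 0.95. Rpl27 had the lowest log2FC, -0.31 ± 0.10 (SE), with an edgeR adjusted p of 0.064. DESeq2 called 3 members, Rps28, Rpl37 and Rpl10a. A fit of the NT wells alone called 11 of 80 (13.8%, beside 6.92% of all genes), of which 10 were higher at 12 hrs and Rpl27 lower. Without replicate 3 of the NT wells at 12 hrs 2 members were called.

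In treated cells the comparison of times was added after seeing the data. With Activin-A 1 member of 81 (1.23%), Rpl3, rose by 0.18 ± 0.06 (SE) with an edgeR adjusted p of 0.0467, beside 6.97% of all genes, and 78 of 81 members were above 0 with a median log2FC of 0.08. The median rested on replicate 1 at 4 hrs: without it the median was 0.01, Rpl3 was not called and 1 other member, Rpl9, was called as lower (log2FC -0.19, edgeR adjusted p = 0.0365). DESeq2 called 0 members there. Without replicate 1, 3 or 4 at 12 hrs edgeR called 0, without replicate 2 at 12 hrs or replicate 2 or 3 at 4 hrs 2, and without replicate 4 at 4 hrs 3.

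With IFN-γ 7 of 81 members (8.64%) were called, beside 8.41% of all genes, of which 5 rose and 2 fell, and the median was 0.04. Rpl38 was at 53.6, 73.3, 68.2 and 48.2 CPM at 4 hrs and at 93.7, 108, 89.6 and 73.7 CPM at 12 hrs, barely without overlap. It rose by 0.59 ± 0.14 (SE), with an edgeR adjusted p of 0.00252. Rps27 rose by 0.34 ± 0.07 (SE), from 439 ± 33.5 to 555 ± 50.2 CPM (SD, n = 4), with an edgeR adjusted p of 0.000459. Rpl36a and Rpl39 rose with a log2FC of 0.33 and 0.31, and Rpl7l1, a paralog of Rpl7, and Rpl27 fell with -0.37 and -0.34, at edgeR adjusted p-values of 0.0147 to 0.0311. DESeq2 called 2 of the 7, Rps27 and Rpl38, and without replicate 2 at 4 hrs or replicate 2 at 12 hrs edgeR called 3. A fit of the IFN-γ wells alone called 10 of 80 (12.5%, beside 10.1% of all genes), 6 higher and 4 lower at 12 hrs.

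With both factors most members lay below 0 at 12 hrs against 4 hrs. Of the 81 tested 27 were above 0, the median was -0.04, and 2 (2.47%) were called beside 7.1% of all genes. Rpl8, which lies near the catalytic centre of the large subunit, was at 2907, 2902, 2965 and 2975 CPM at 4 hrs and at 2504, 2741, 2387 and 2728 CPM at 12 hrs, without overlap. It fell by 0.17 ± 0.05 (SE), with an edgeR adjusted p of 0.0288. Rps28 was at 112, 123, 121 and 120 CPM and then at 156, 141, 154 and 142 CPM, a rise of 0.33 ± 0.10 (SE) with an edgeR adjusted p of 0.0328, so that it was higher at 12 hrs here as in NT cells. DESeq2 called 1 member, Rpl8, and without replicate 1 or 3 at 12 hrs, or replicate 4 at 4 hrs, edgeR called 0, and without replicate 1 at 4 hrs 1. A fit of the wells with both factors alone called 5 of 80 (6.25%, beside 8.17% of all genes), 2 higher and 3 lower at 12 hrs.

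**Figure D4:**
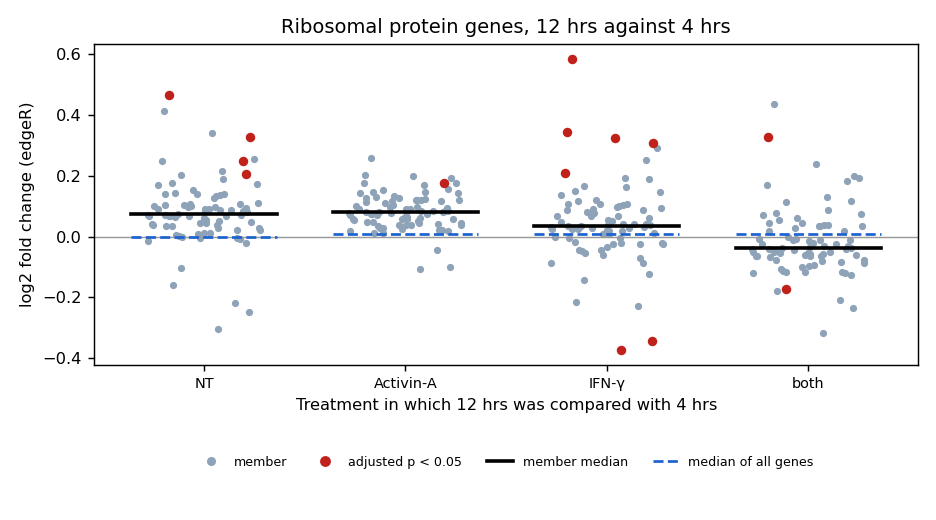
log2FC of each tested member at 12 hrs against 4 hrs (points, 81 per column) in each treatment, with members at an edgeR adjusted p under 0.05 in red, the median of the members (black line) and the median of all genes (dashed line). The members' medians are 0.08 in NT cells, 0.08 with Activin-A, 0.04 after IFN-γ alone and -0.04 after both.

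The difference between the times was tested itself. For the effect of both factors at 12 hrs minus that at 4 hrs, added after seeing the data, edgeR called 0 of 81 members beside 0.9% of all genes, 15 members had an unadjusted p under 0.05, DESeq2 called 0, and the median member log2FC was -0.10 with 68 of 81 members below 0. For IFN-γ it called 0 members beside 0.579% of all genes, with 4 at an unadjusted p under 0.05 and 0 with DESeq2, and the median was -0.04. For Activin-A it called 0 beside 0.0214% of all genes, with 2 at an unadjusted p under 0.05 and 0 with DESeq2, and the median was 0.01, or -0.066 without replicate 1 with Activin-A at 4 hrs, when 0 were called as well. These counts are of the fit over all 32 wells. With only the groups compared in the fit, edgeR called 3 members for both factors (beside 1.22% of all genes), Rps3, Rpl17 and Rpl10a, and 1 for IFN-γ (beside 0.831%), Rpl35a, all with a lower log2FC at 12 hrs. For both factors, leaving out replicate 3 at 4 hrs of the NT wells or of the wells with both factors also gave 1 call, Rpl35a.

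**Figure D5:**
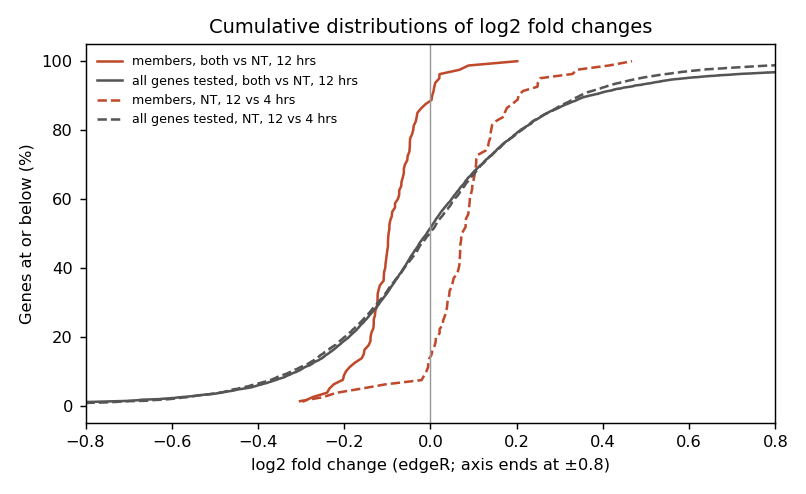
Cumulative percentage of genes at or below a log2FC, for the members (red) and all genes tested (grey), with both factors against NT at 12 hrs (solid) and in NT cells at 12 hrs against 4 hrs (dashed); the axis ends at ±0.8. The members' curves are steeper than those of all genes and are centred at -0.10 and 0.08.

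Members with particular roles were followed for both factors against NT at 12 hrs whatever their result. Rps6, the substrate of the S6 kinases, was at 1672 ± 73.7 CPM (SD, n = 4) in NT cells and 1549 ± 92.9 with both factors, a log2FC of -0.10 ± 0.05 (SE) with an edgeR adjusted p of 0.22. Rps27a, which is made as a fusion with ubiquitin, had -0.11, Rps19, the first gene linked to Diamond-Blackfan anemia, -0.10, Rpl5 -0.07, Rpl11 -0.04, and Rpl3, near the catalytic centre, -0.04, with edgeR adjusted p-values of 0.22 to 0.77. Fau, outside the rule, had -0.04, with an edgeR adjusted p of 0.79.

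The paralogs were set beside their partners, and 1 of the 3 pairs compared here differed in sign. Of other paralogs listed, Rpl39l and Rpl3l were not among the genes measured. Rpl22l1 had a log2FC of 0.09 ± 0.07 (SE) where Rpl22 fell by 0.20, and edgeR's adjusted p for Rpl22l1 was 0.53. Rps27l had -0.10 and Rps27 -0.14, Rpl7l1 had -0.22 and Rpl7 -0.06, and edgeR's adjusted p-values were 0.20 to 0.59. The difference within a pair was not tested. Rps27rt, at few counts, had -0.23 ± 0.27 (SE), with an edgeR adjusted p of 0.72, and Rpl36al did not pass the filter at 12 hrs. Rps19bp1 was the highest of the 80, with a log2FC of 0.20 ± 0.14 (SE) and an edgeR adjusted p of 0.48.

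The medians of members with and without a sequence feature were close. With both factors at 12 hrs the median log2FC was -0.12 in the 13 tested members with a TOP-like start and -0.10 in the 47 with a promoter and none, and it was -0.10 with CCGGAAG (24 members) and -0.10 without (36 members). The median was -0.10 in the 59 members with a -ps pseudogene locus and -0.10 in the 21 without one.

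Other genes of translation were taken from lists for comparison. With both factors at 12 hrs, where 9.84% of all genes were called, 1 of 7 elongation factor genes fell: Eef1a1, whose mRNA also carries a TOP motif, from 8627 ± 217 to 7594 ± 631 CPM (SD, n = 4), a log2FC of -0.18 ± 0.05 (SE) with an edgeR adjusted p of 0.0045. Of 31 initiation factor genes 2 fell, Eif1 (log2FC -0.31) and Eif4b (-0.21), with edgeR adjusted p-values of 3.15e-07 and 0.0198. Of 9 regulators of translation tested Larp1 rose, from 148 ± 9.25 to 183 ± 16.4 CPM, with a log2FC of 0.31 ± 0.09 (SE) and an edgeR adjusted p of 0.017. DESeq2 called Eif1 and Eif4b but not Eef1a1 (adjusted p = 0.16) or Larp1 (0.085), and it called another elongation factor gene, Eef1b2, as lower. Of 60 ribosome biogenesis genes edgeR called 0, with 5 at an unadjusted p under 0.05 and 0 with DESeq2, and of 77 mitochondrial ribosomal protein genes Mrpl13 and Mrpl32 rose, of which DESeq2 called Mrpl13. Medians were -0.09 for elongation, -0.02 for initiation, -0.01 for biogenesis and -0.04 for the mitochondrial ribosome.

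Between 4 and 12 hrs in NT cells, where the cytosolic ribosomal protein genes had a median log2FC of 0.08, the 60 ribosome biogenesis genes had one of -0.11. Of these 5 fell and 0 rose, beside 4.9% of all genes called: Nat10 (log2FC -0.80), Rrp9 (-0.52), Ddx21 (-0.39), Ubtf (-0.34) and Nhp2 (-0.33), which act in the transcription, processing or modification of ribosomal RNA, with edgeR adjusted p-values of 0.00412 to 0.0329. DESeq2 called 2 of these 5, Nat10 and Ddx21. Of the 31 initiation factor genes 3 rose and 4 fell, and DESeq2 called 5 of these 7. Eif4b, itself encoded by a TOP mRNA, was among those that rose, by 0.34 ± 0.07 (SE), with an edgeR adjusted p of 0.000149.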

How the data were processed

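BRB-seq counts were analysed for 32 wells of YUMM3.3 cells, 4 in each of 8 groups. The authors deposited raw counts per gene, which were whole numbers without normalization. The submitters' processing notes name STAR 2.7.10b, featureCounts, DESeq2 1.36.0 and GRCm39. The handling of unique molecular identifiers and of reads that map to several genes is not given in the sources used here, so members that share sequence with a paralog or pseudogene are uncertain. Symbols were matched to 12437 of 12451 Ensembl identifiers in GENCODE M21. Depth was 654539 to 1455074 counts per well.

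Members and gene lists were chosen with earlier results of these data known. Genes were filtered with filterByExpr, scaled by TMM and tested with edgeR 4.0.16 (R 4.3.3) by glmQLFit and glmQLFTest, over the 16 wells of a time or, between times, over all 32, with Benjamini-Hochberg adjustment and a threshold of 0.05. The SE of a log2FC was its size divided by the square root of the test's F. CPM of genes were scaled by TMM over all 32 wells, and the floor of detection was not. Shares are of a well's total counts and were given no test, as the members are not replicates. Comparisons numbered 18, of which 5 were added after seeing the data. Alternatives were DESeq2 1.42.0, RLE, TMM without the members, total counts only, no filter, at least 10 counts in every sample, a replicate block, all wells or only the groups compared, and each well left out. For the share they were other totals, other subsets of the members and the mean log2 CPM (prior count 2).

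Named members were all those called in a comparison, the 2 highest and the 2 lowest of a comparison and a list with known roles (Rps6, Rplp0, Rpl13a, Rpl5, Rpl11, Rps27a, Rpl3, Rps3, Rps19, Rpl41, the paralog pairs, Rps19bp1 and Fau); some genes that the rule names are not reported here. Members whose wells do not overlap, and Rpl9, were named after their values were seen. Scripts were tested on simulated data. Promoters were RefSeq's, of GRCm38.p6.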

Additional observations from a re-analysis of the deposited data

Results flagged for a closer look

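In groups of 4 wells, a well was marked when its gap to the nearest other well was large beside the group's whole range, by Dixon's criterion at 95%. The members' share and 22 members called in a comparison were examined in 8 groups, 184 groups of values in all, and 12 wells were marked. Chance marks about 1 in 20 groups. Of the 12, 5 belonged to replicate 1 with Activin-A at 4 hrs, which was the low one each time: the members' share was 8.77%, Rplp0 3557 CPM, Rps18 490 CPM, Rps3 2873 CPM and Rps9 1393 CPM.

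The others were single wells of single genes. At 4 hrs Rpl37 was high at 333 CPM and Rplp0 low at 4638 CPM in replicates 4 and 2 with IFN-γ, and Rpl41 was high at 993 CPM and Rps4x low at 1392 CPM in replicates 4 and 1 with both factors. At 12 hrs Rpl8 was low at 2592 CPM in NT replicate 2, Rps27l high at 282 CPM in replicate 1 with Activin-A, and Rps4x high at 1839 CPM in replicate 1 with IFN-γ.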

How the results depend on the processing

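No member called in any comparison changed its direction under an alternative: of 528 recalculated values of called members 396 stayed past the threshold, 132 did not and 0 changed sign. The cause of a lost or gained call was not tested. Members called with DESeq2 numbered 4 (of 9 with edgeR) for both factors against NT at 12 hrs, 1 (of 2) against IFN-γ, 1 (of 6) against Activin-A, 0 (of 2) for IFN-γ against NT, and, for 12 hrs against 4 hrs, 0 (of 1) with Activin-A, 2 (of 7) with IFN-γ and 1 (of 2) with both. With all 32 wells in the fit the first 4 counts were 4, 0, 3 and 0. With total counts only they were 21 for both factors against NT, 12 against Activin-A and 7 for IFN-γ, and 1 for both factors against NT at 4 hrs. With that scaling the median log2FC of all genes was -0.03 and that of the members -0.12 for both factors against NT at 12 hrs. With only the groups compared in the fit, 12 hrs against 4 hrs gave 11 members in NT cells, beside 6.92% of all genes. It gave 10 with IFN-γ (beside 10.1%), 5 with both factors (8.17%) and 0 with Activin-A (4.84%). In such fits the effect at 12 hrs minus that at 4 hrs gave 3 with both factors (1.22%) and 1 with IFN-γ (0.831%). For Activin-A at 12 hrs against 4 hrs RLE, TMM without the members, no filter and the replicate block gave 0, and at least 10 counts in every sample 2.

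With 1 well left out, members called at 12 hrs ranged from 4 to 13 for both factors against NT, 0 to 4 against IFN-γ, 3 to 6 against Activin-A and 0 to 3 for IFN-γ against NT. At 4 hrs the range was 0 to 2 for Activin-A and 0 to 1 for both factors against NT. For 12 hrs against 4 hrs it was 2 to 4 in NT cells, 0 to 3 with Activin-A, 3 to 7 with IFN-γ and 0 to 3 with both, and for the effect of both factors at 12 hrs minus 4 hrs 0 to 1. The shares of all genes called in these fits, and with DESeq2 above, are not given here, so these counts are not set against a background. The log2 ratio of the members' share ranged from -0.050 to 0.033 for Activin-A against NT at 4 hrs, 0.016 to 0.10 for Activin-A at 12 hrs against 4 hrs, -0.057 to 0.026 for the effect of Activin-A at 12 hrs minus 4 hrs and -0.020 to 0.063 for the interaction at 4 hrs, in each case with its far value without replicate 1 with Activin-A at 4 hrs. For both factors against NT at 12 hrs it ranged from -0.14 to -0.11 around -0.12, other totals and subsets of the members gave -0.13 to -0.11, and the mean log2 CPM over the members -0.083.

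With the replicate number as a replicate block 9 members were called for both factors against NT at 12 hrs, as without it, and apart from Activin-A at 12 hrs against 4 hrs no count of members changed. Wells of the same number did not deviate together (mean correlation -0.0018 at 4 hrs and 0.0014 at 12 hrs over 24 pairs each), so the numbers were not taken to pair wells. Depth limits the statements on Rpl24, Rps10, Rpl36al and Rps27rt, with means under 20 counts.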
